A study of Caenorhabditis elegans with 46 samples.

Results

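Adult worms of the wild-type strain N2 that had gone without food for 48 h were compared with worms of the same age that had been fed throughout. The comparison holds 4 of the 46 arrays of the study: N2, Fast 48 h (replicates 1 and 2) and N2, Fed 48 h (replicates 1 and 2). They were chosen by these titles, and every gene on the array was followed in them. N2 is the standard laboratory strain of the nematode Caenorhabditis elegans and carried no transgene or mutation here. All worms were fed until day 2 of adulthood. One group was then fasted and the other kept on food, so that both were day 4 adults when their RNA was taken. How the worms were fasted, how many were pooled for an array and what food they had are not in the labels. The study is a time course of fasting in N2 and a set of kgb-1, jun-1 and daf-16 mutants, and its design text speaks of 2 independent experiments for the time course. Other arrays of N2 are used below beside these 4. They are fed worms at 0 h (day 2 adults), and worms fasted or fed for 24 h or fasted for 36 h (all day 3 adults), with 2 arrays each. Fasted and fed day 4 adults from the mutant set (3 arrays each, fasting time not in the labels) are used too.

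A worm without bacteria lives from its own stores. Fat in the intestine and epidermis is released by lipases and oxidised in mitochondria and peroxisomes, the glyoxylate cycle lets fat-derived carbon enter sugar synthesis, and autophagy recycles the cell's own proteins and organelles. Nuclear hormone receptors such as NHR-49, the FOXO factor DAF-16 and the kinase AMPK are known regulators of this switch. The intestine also adjusts the lysozymes, proteases and detoxifying enzymes with which it meets bacteria, and an adult hermaphrodite that stops feeding slows its production of eggs.

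Each value below is the intensity of 1 probe set, a group of short array probes for 1 transcript, on a linear scale as deposited, where 16 is the floor. A level below 50 (mean of a group) is called near the floor, and a log2 difference that involves one is approximate and marked as about where it is of 48 h. Log2 differences are fasted minus fed, from limma on quantile-scaled log2 intensities, with their standard error (SE), and n is 2 arrays per group in the time course, against 3 for the mutant set. A gene rose or fell where its p, adjusted over 22548 probe sets, was under 0.05. Of 17118 genes, each represented by its brightest probe set, 2843 rose and 2497 fell, which is 16.6% and 14.6%. This fit did not pair fasted and fed arrays by replicate number. With the replicate number as a block in the model, 3505 genes rose and 3340 fell, so some genes not called here are called with it. At least a 2-fold change was reached by 1040 of the risen genes (6.08%) and 678 of the fallen ones (3.96%), and a 4-fold change by 84 (0.491%) and 122 (0.713%). The 2 fasted and the 2 fed arrays did not overlap for 11362 genes (66.4%), so that a gap between the groups alone is common here. The fasted arrays correlated at 0.991 with each other and the fed arrays at 0.992, and a fasted with a fed array at 0.947 to 0.957.

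The balance of rises and falls depends on the scaling. The median intensity was 81.8 and 84.0 on the fasted arrays, against 64.5 and 66.9 on the fed arrays. The median log2 difference of all probe sets was -0.03 with quantile scaling, 0.07 with the values as deposited and -0.27 with each array centred on its median. With quantile scaling 3600 probe sets rose (16%) and 3174 fell (14.1%), so that 53.1% of the calls were rises. With the values as deposited 4982 rose (22.1%) and 2155 fell (9.56%), and 69.8% of the calls were rises. With median centring 2795 rose (12.4%) and 7587 fell (33.6%), and 26.9% were rises. Changes below are relative to the first of these medians. Leaving out 1 array lowered the counts, most of all without fed replicate 1, with 2386 risen and 1868 fallen probe sets. Where another scaling turned the balance of risen and fallen members of a gene list, or where taking the replicate number as a block in the model (the replicate block) moved one of its counts by over 1.5 times, those counts follow the list in parentheses, risen members before fallen ones. They are to be read beside 22.8% risen and 10.1% fallen of all genes as deposited, 13% and 34.2% with median centring, and 20.5% and 19.5% with the replicate block. List counts with quantile scaling are to be read beside 16.6% risen and 14.6% fallen of all genes, and some lists lie near these shares. All gene lists were chosen with earlier results of these data known, so that their direction is no independent evidence. In whole worms, fewer cells of a type and less RNA per cell cannot be told apart.

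**Figure D1:**
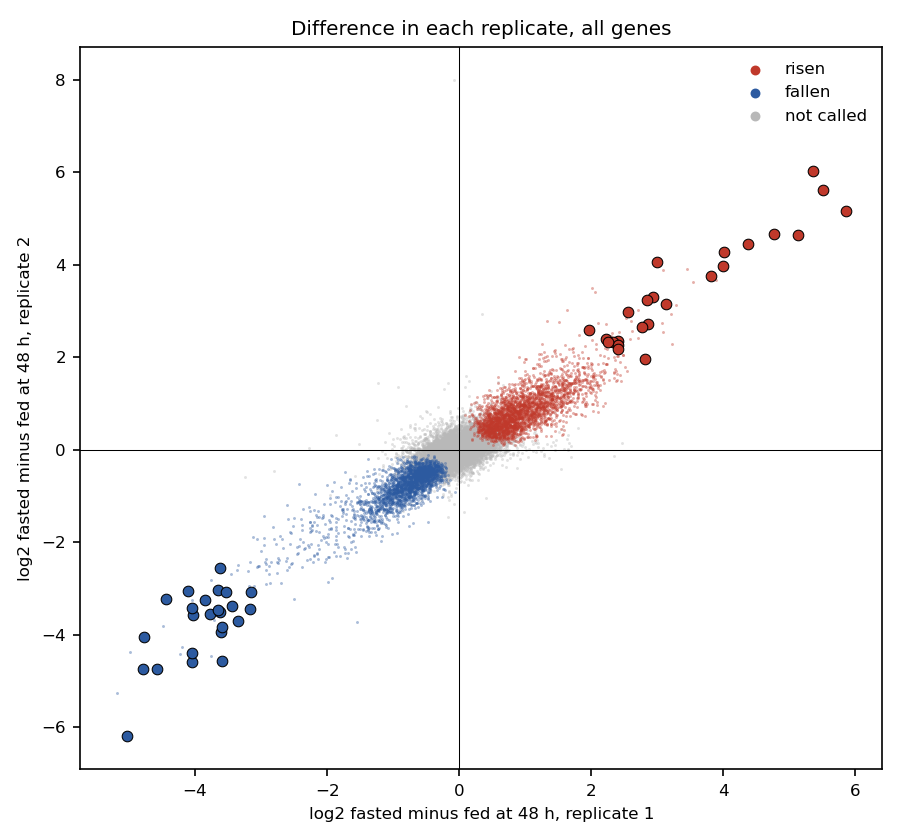
Log2 difference between fasted and fed worms at 48 h in replicate 2 (vertical axis) against replicate 1 (horizontal axis), 1 point per gene, with quantile-scaled values. Risen genes are red, fallen genes blue and genes not called grey. The 24 highest and 24 lowest called genes with a gene-class symbol are drawn larger, and they lie at 2.27 or above and at about -3.10 or below in the fit of both replicates.

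The 24 highest and 24 lowest genes were taken from called genes whose fasted and fed arrays did not overlap. A gap between the groups in these genes therefore follows from that choice. The highest of the genes with a class symbol were 2 small heat shock and 2 lysozyme genes. The small heat shock gene hsp-12.6, a known target of DAF-16, read 1182 and 1832 in fasted worms, against 27.8 and 27.1 in fed worms. Its relative hsp-12.3 read 1474 and 2069.6 in fasted worms, against 30.8 and 39.7 in fed worms. Both were near the floor with food and far above it without, and their log2 differences were about 5.69 ± 0.30 and about 5.56 ± 0.49 (with 16 added before the log, 5.05 and 5.04). The invertebrate-type lysozyme genes ilys-3 and ilys-2, whose enzymes cut bacterial cell walls, followed. The gene ilys-3 had 2585 and 1862 in fasted worms, against 40.8 and 49.2 in fed worms, and ilys-2 had 967 and 927 in fasted worms, against 26.9 and 36.8 in fed worms, with differences of about 5.50 ± 0.30 and about 4.88 ± 0.27. The alcohol dehydrogenase gene adh-1 was already expressed in fed worms and read 6261 and 6832 in fasted worms, against 216 and 249 in fed worms, a difference of 4.71 ± 0.20 (adjusted p = 2.18e-10, limma).

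Among the genes of lipid and water transport, the fatty acid and retinol binding gene far-7 read 794 and 1053 in fasted worms, against 45.9 and 52.3 in fed worms (about 4.15 ± 0.28). The aquaporin gene aqp-1, a channel for water and glycerol, had nearly equal replicates, with 2796 and 2811 in fasted worms, against 159.9 and 166 in fed worms (3.98 ± 0.22). The mitochondrial acyl-CoA synthetase acs-2, a textbook target of NHR-49, read 1634 and 2741 in fasted worms, against 103 and 187 in fed worms (3.78 ± 0.36). In each of these 3 genes both fasted arrays lay several-fold above both fed arrays. The saposin-like gene spp-27 read 1071 and 1803 in fasted worms, against 48.1 and 75.5 in fed worms (4.40 ± 0.53), and the C-type lectin gene clec-61 read 205 and 289 in fasted worms, against 21.9 and 16.1 in fed worms (about 3.53 ± 0.27).

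The rest of the 24 highest genes rose by 2.27 to 3.14. They include the neuropeptide-like gene nlp-51, which read 821 and 1002 in fasted worms, against 84.01 and 108 in fed worms, and the cytochrome P450 gene cyp-37B1, with 622 and 646 in fasted worms, against 73.5 and 62.2 in fed worms. The linker histone gene hil-1 had 765 and 1018 in fasted worms, against 95.6 and 104 in fed worms, and cup-16 had 1266 and 1595 in fasted worms, against 162 and 231 in fed worms. These 4 were 5-fold or more brighter in every fasted array than in every fed array. The galectin gene lec-2 had replicates that differed little, with 4599 and 4671 in fasted worms, against 896 and 899 in fed worms (2.37 ± 0.13). The ferritin gene ftn-1, for iron storage, read 2785 and 2722 in fasted worms, against 721 and 429 in fed worms, and the antibacterial peptide gene abf-2 read 2597 and 4509.9 in fasted worms, against 479.7 and 969 in fed worms. The replicates of abf-2 stood further apart than those of lec-2, and its adjusted p was 0.0343 (limma). Taken by replicate number, its log2 differences were 2.40 and 2.17, and with the replicate block its adjusted p was 2.04e-07 (limma). The others were hsp-16.20 and hsp-16.2 of the small heat shock family, the immunoglobulin-domain gene zig-3, the tetraspanin gene tsp-1, the anion transporter gene sulp-8, the F-box gene fbxb-86 and sdz-35. At 24 h fbxb-86 was not called, with 294 and 32.5 in fasted worms, against 44.2 and 54.9 in fed worms. Of the genes with a sequence name only, C54F6.20 (323 and 298 in fasted worms, against 20.04 and 21.6 in fed worms), F40G12.5 (202 and 265 in fasted worms, against 16.005 and 16.1 in fed worms), C06G3.3, Y6E2A.4 and Y53F4B.45 rose most, by about 3.78, about 3.67, about 3.59 and about 3.49, and by 3.20.

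The deepest fall among genes with a class symbol was in cyp-35A3, a cytochrome P450 of the detoxifying cyp-35 family. It read 26.5 and 21.1 in fasted worms, against 875 and 1524 in fed worms, a difference of about -5.62 ± 0.35. The cathepsin A family gene ctsa-1.2, a carboxypeptidase, read 134 and 132 in fasted worms, against 3174 and 3034 in fed worms (-4.77 ± 0.17, adjusted p = 3.87e-11, limma). The saposin-like gene spp-4 read 53.4 and 44.02 in fasted worms, against 1193 and 1085 in fed worms (about -4.66 ± 0.21). The fasted arrays of cyp-35A3 and spp-4 were at or close to the floor, while ctsa-1.2 was still above it. The folate transporter gene folt-2 had 51.2 and 58.5 in fasted worms, against 802 and 1095 in fed worms (-4.21 ± 0.37), and sysm-1 had 62.6 and 82.96 in fasted worms, against 1564 and 1204 in fed worms (-4.42 ± 0.29). The gene hrg-11.2 of the heme-responsive class had 107 and 305 in fasted worms, against 1980.4 and 2689.7 in fed worms, so that its fasted replicates stood apart but below both fed ones. The difference was -3.83 ± 0.49.

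The invertebrate-type lysozyme ilys-5 read 732 and 959 in fasted worms, against 9258 and 10751 in fed worms, a difference of -3.56 ± 0.13. While ilys-2 and ilys-3 rose, ilys-5 fell, so the family split. The fatty acid binding gene far-3 read 289.8 and 360.4 in fasted worms, against 4407 and 4257 in fed worms (-3.80 ± 0.37), opposite to far-7. The UDP-glucuronosyl transferases ugt-22 and ugt-25, which attach sugar to foreign and internal lipophilic compounds, had -3.77 ± 0.17 and -3.31 ± 0.19. The gene pud-3, named for its level in insulin receptor mutants, had 221 and 259 in fasted worms, against 3227 and 2544 in fed worms (-3.73 ± 0.19). The aspartyl protease gene asp-14 had 282 and 289.9 in fasted worms, against 3198 and 2229 in fed worms (-3.35 ± 0.20). The rest of the 24 lowest genes had log2 differences of -4.32 to about -3.10. They were cyp-35C1, cyp-35A4, oac-32, bcf-1, the collagens col-101, col-159 and col-183, spp-23, spig-20, the C-type lectins clec-67 and clec-265, and the short-chain dehydrogenase dhs-26. Of the genes with a sequence name, F55G11.2 (38.1 and 22.9 in fasted worms, against 1351 and 876 in fed worms), F01D5.2, D1086.3, T22B7.7 and F28H7.3 fell most, with log2 differences of about -5.23 to -4.15.

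**Figure D2:**
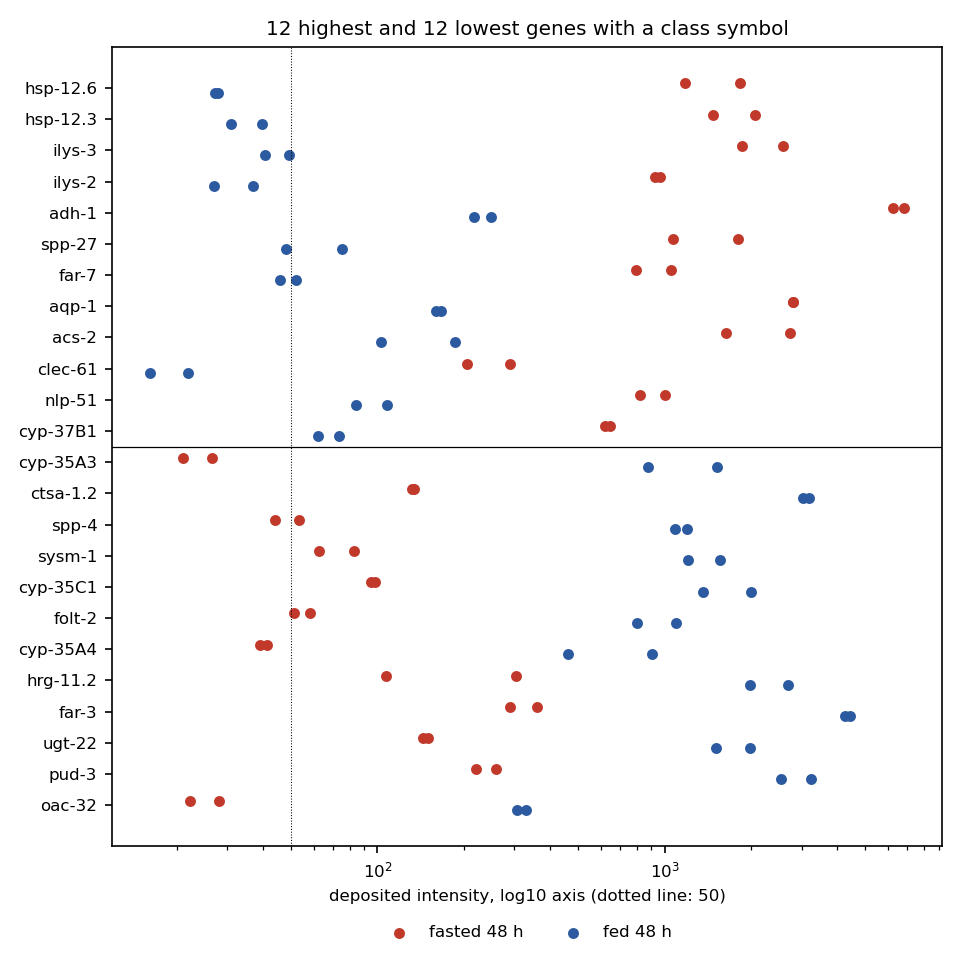
Deposited intensity (log10 axis) in the 2 fasted arrays (red) and the 2 fed arrays (blue) of the 12 highest and 12 lowest genes with a class symbol by log2 difference, 1 row per gene. The genes were taken from those without overlap between the groups, so a gap in each row follows from that choice. The fed values of hsp-12.6, hsp-12.3, ilys-3, ilys-2 and clec-61 lie below 50, near the floor of 16.

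The level before the fast was measured too. Fed worms at 0 h, day 2 adults, lay nearer to the fed 48 h worms than to the fasted ones for 24 of the 24 highest and 19 of the 24 lowest genes (mean log2). For the other 5, far-3, cyp-35A4, col-183, ugt-25 and dhs-26, the worms at 0 h were closer to the fasted worms. So were they for T22B7.7 and, of the genes of the test between times below, T01D3.6. The 24 highest and 24 lowest genes are the extremes at 48 h, and the share over all genes was not counted. In T22B7.7 and T01D3.6 the fed level at 48 h minus that at 0 h (mean log2) was 2.48 and 0.58. The fasted level at 48 h minus that at 0 h was -1.76 and -0.25 in them. The gene far-3 read 475 and 561 at 0 h, 2898 and 3334 in worms fed for 24 h and 4407 and 4257 in worms fed for 48 h, against 289.8 and 360.4 after 48 h of fasting. The collagen col-183 read 30.9 and 47.01, 108 and 106 and 541 and 417 over the same fed times, and 38.01 and 48.7 after the fast. In dhs-26 the fed arrays read 42.6 and 56.3, 132 and 93.05 and 534 and 274, and the fasted arrays 44.8 and 52.5. In these 3 genes the fed level was higher on day 4 than on day 2. The fasted level at 48 h minus that at 0 h (mean log2) was -0.001 in col-183 and -0.28 in dhs-26, but -0.70 in cyp-35A4, -0.75 in far-3 and -1.28 in ugt-25. In cyp-35A3 both moved, with 154 and 149 at 0 h, 875 and 1524 in fed worms at 48 h and 26.5 and 21.1 in fasted ones. For ctsa-1.2 the fasted arrays read 456 and 372 after 24 h of fasting, 216 and 156 after 36 h and 134 and 132 after 48 h, while the fed arrays had 2229 and 1989 on day 2 and 3174 and 3034 on day 4.

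Fat breakdown genes did not move as a block. Of 30 genes for oxidising fatty acids in mitochondria, 7 rose and 5 fell (5 and 12 with median centring), where 16.6% and 14.6% of all genes did. Beside acs-2, hacd-1, a hydroxyacyl-CoA dehydrogenase, read 3779 and 4389.96 in fasted worms, against 1420.1 and 1046 in fed worms (1.71 ± 0.21), and acdh-7, an acyl-CoA dehydrogenase, rose by 1.02 ± 0.19. In the carnitine palmitoyltransferase family, which carries fatty acids into mitochondria, cpt-3 rose by about 1.31 ± 0.34 and cpt-5 had 46.7 and 38.1 in fasted worms, against 112 and 121 in fed worms (about -1.68 ± 0.21). The acyl-CoA dehydrogenase acdh-1 read 1893 and 2633 in fasted worms, against 4848 and 5861 in fed worms and fell (-1.29 ± 0.25), and the enoyl-CoA hydratase ech-6 had -0.55 ± 0.13. Of 18 peroxisomal genes, the catalase ctl-2 rose by 1.24 ± 0.16 and the import receptor prx-5 by 0.98 ± 0.20, while 5 others fell (4 and 4 as deposited), among them the acyl-CoA oxidase acox-1.5 at -0.80 ± 0.17. Of 23 acyl-CoA synthetases, which activate fatty acids, 8 rose and 1 fell (8 and 2 with the replicate block), such as acs-17 with 824 and 1019 in fasted worms, against 239 and 375 in fed worms (1.58 ± 0.29). The fallen one was acs-1, with 366 and 413 in fasted worms, against 1386 and 2026 in fed worms (-2.15 ± 0.17).

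Fat release and storage changed at single genes. The lysosomal lipase lipl-4 read 185 and 202 in fasted worms, against 50.6 and 63.8 in fed worms (1.48 ± 0.21), hosl-1, the hormone-sensitive lipase, rose by 1.13 ± 0.19, and lipl-3 by 0.96 ± 0.24. The lipases lips-14, lips-11 and lips-5 fell, with differences of about -2.55 to about -1.47. Of 29 lipases 7 rose and 3 fell (5 and 7 with median centring, 9 and 5 with the replicate block). On the synthesis side, the stearoyl-CoA desaturase fat-7 read 185 and 91.2 in fasted worms, against 932 and 735 in fed worms (-2.87 ± 0.44), and dgat-2, an acyltransferase of triglyceride synthesis, read 155 and 202 in fasted worms, against 399 and 551 in fed worms (-1.60 ± 0.24). The fatty acid synthase fasn-1 had -0.45 ± 0.15, whereas pcyt-1, of phosphatidylcholine synthesis, rose by 1.28 ± 0.26 and the lipid regulator sbp-1 by 0.68 ± 0.20. Of 23 genes in this list 4 rose and 4 fell (7 and 3 as deposited, 3 and 7 with median centring, 8 and 4 with the replicate block). Of 17 lipid-binding proteins of the far and lbp classes 3 rose and 4 fell (4 and 4 as deposited, 7 and 4 with the replicate block), with lbp-1 at 1.21 ± 0.34 and lbp-8 at about -2.06 ± 0.34. Of 5 yolk protein genes only vit-1 was called, with 771 and 1111 in fasted worms, against 4117 and 3224 in fed worms (-1.94 ± 0.28). The others, vit-2, vit-4, vit-5 and vit-6, had differences of -0.15 to -0.02 and did not pass the test, but 5 of 5 were called lower with median centring.

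Genes that make sugar from fat and amino acids changed in both directions. The isocitrate lyase and malate synthase gene icl-1 of the glyoxylate cycle read 3836 and 3689 in fasted worms, against 964 and 1419.6 in fed worms (1.67 ± 0.18). The phosphoenolpyruvate carboxykinases pck-2 and pck-1, enzymes of gluconeogenesis, had 6394 and 6479 in fasted worms, against 2945 and 3115 in fed worms and 736 and 941 in fasted worms, against 294 and 312 in fed worms (1.05 ± 0.11 and 1.44 ± 0.31). The aconitase aco-1 rose by 1.39 ± 0.17, and the aspartate aminotransferases got-1.2 and got-2.2 rose by 1.56 ± 0.17 and 0.93 ± 0.23. Fructose bisphosphatase fbp-1 fell by 0.57 and glucose phosphate isomerase gpi-1 fell by 0.44, and the malate dehydrogenase mdh-2 fell by 0.52. The other 3, mdh-1, pck-3 and pyc-1, had differences of -0.22 to 0.25 and did not pass the test. In all 6 of 12 genes rose and 3 fell, with a median of 0.59 beside -0.03 for all genes. The trehalose synthases tps-1 (599 and 999 in fasted worms, against 189.5 and 262 in fed worms) and tps-2 rose by 1.74 ± 0.30 and 0.98 ± 0.23, and glycogenin gyg-1 by 1.25 ± 0.18. The alpha-glucosidases aagr-2 and aagr-1, which digest glycogen, fell by 1.52 and 0.63. Of 15 genes of trehalose and glycogen 6 rose and 3 fell (5 and 6 with median centring).

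In glycolysis 7 of 15 genes rose and 2 fell (4 and 4 with median centring), led by pyruvate kinase pyk-2 (1187 and 1349.8 in fasted worms, against 519 and 529 in fed worms), the glyceraldehyde phosphate dehydrogenases gpd-2 and gpd-3, and aldolase aldo-1 (0.77 to 1.30). The hexokinases hxk-1 and hxk-2, at the entry of the pathway, fell by 0.75 and 0.77. In the tricarboxylic acid cycle 7 of 23 genes rose and 4 fell (4 and 6 with median centring). The NADP-dependent isocitrate dehydrogenase idh-2 read 938 and 835 in fasted worms, against 283 and 328 in fed worms (1.53 ± 0.15). Succinate dehydrogenase subunit genes split, with sdha-1 at 0.99 ± 0.14 and its paralogue sdha-2 at -0.71 ± 0.13, and so did succinyl-CoA ligase subunits, with suca-1 at 1.01 ± 0.17 and sucg-1 at -1.07 ± 0.13. Of 64 genes of the respiratory chain and ATP synthase 13 rose and 5 fell (6 and 18 with median centring, 18 and 10 with the replicate block). The core subunit ucr-2.1 of complex III read 1403 and 1501 in fasted worms, against 567 and 559 in fed worms (1.36 ± 0.16), and the ATP synthase subunit asb-2 and the complex I subunit gas-1 rose by 1.24 ± 0.19 and 0.97 ± 0.16. The assembly factors cox-18 and cox-11 fell by 0.80 and 0.62.

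Most ribosomal protein genes of the cytosol were not called, and some of those of the mitochondrion fell. Of 63 cytosolic ribosomal protein genes 2 rose, rps-16 and rpl-23, by 0.22 ± 0.07 and 0.20 ± 0.07 (-0.12 and -0.19 with median centring), and 0 fell by limma (0 with p under 0.05 before adjustment, where 3549 of all genes (20.7%) were higher and 3340 (19.5%) lower) (0 and 0 as deposited, 0 and 52 with median centring, 5 and 0 with the replicate block), with a median of 0.01. Of 56 mitochondrial ribosomal protein genes 0 rose by limma (0 with p under 0.05 before adjustment) and 17 fell (40 with median centring) (0 and 26 with the replicate block), with a median of -0.31, such as mrpl-34 (885 and 899 in fasted worms, against 1567 and 1389 in fed worms), mrps-35, mrps-16 and mrpl-24 (-0.98 to -0.71). Among 33 aminoacyl-tRNA synthetases 9 rose and 8 fell (3 and 13 with median centring). The cytosolic seryl and histidyl enzymes sars-1 and hars-1 had 5284 and 5378 in fasted worms, against 3019 and 3008 in fed worms, and 1996 and 1866 in fasted worms, against 1041 and 967 in fed worms (0.80 ± 0.09 and 0.92 ± 0.13). The phenylalanyl, glutamyl and leucyl enzymes fars-2, ears-2 and lars-2, whose names mark mitochondrial forms, fell, with differences of -1.12, -0.88 and -1.07, and cars-2 rose by about 0.80 ± 0.13. Of 39 translation factors 10 rose and 3 fell (6 and 15 with median centring), led by 3 subunits of the initiation factor eIF3, eif-3.G, eif-3.I and eif-3.E (0.92 to 1.08), and by iff-2 (0.93 ± 0.19).

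Autophagy and protease lists held risen and fallen genes, where 16.6% of all genes rose and 14.6% fell. Of 26 autophagy genes 12 rose and 2 fell. The cargo receptor sqst-1 read 4869.7 and 4738 in fasted worms, against 1215 and 1531 in fed worms (1.81 ± 0.18). The genes atg-16.2 and atg-16.1, which take part in attaching LGG-1 to the autophagosome, rose by 1.53 ± 0.15 and 1.20 ± 0.15, and the lipid transfer gene atg-2, with 599 and 568 in fasted worms, against 209 and 216 in fed worms, by 1.41 ± 0.14. The 2 that fell were lgg-3 and atg-5, members of the conjugation system, with -0.49 ± 0.13 and -0.48 ± 0.15. Of 33 proteasome subunits 0 rose by limma (0 with p under 0.05 before adjustment) and 5 fell, with a median of -0.17 (1 and 10 with the replicate block), among them the core subunit pbs-3 at -0.47 ± 0.11. Of 33 cathepsin and aspartyl proteases 3 rose and 15 fell (6 and 17 with the replicate block). Beside ctsa-1.2 and asp-14, ctsa-4.2 and ctsa-3.1 had -1.18 ± 0.13 and -1.36 ± 0.15. The ones that rose were cpz-2 (2413 and 2658 in fasted worms, against 1084 and 1304 in fed worms), asp-6 and cpr-3, by 1.05 ± 0.16, 0.66 ± 0.12 and 0.74 ± 0.23. Of 19 subunits of the lysosomal proton pump 3 rose and 4 fell, with unc-32 at 1.01 ± 0.22 and vha-7 at -0.58 ± 0.16.

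All 12 small heat shock genes measured can be followed singly. The rises were hsp-12.6, hsp-12.3, hsp-16.20, hsp-16.2, hsp-16.41 (431 and 487 in fasted worms, against 81.97 and 115 in fed worms) and hsp-16.21, the last by about 1.12 ± 0.20. The gene hsp-17 fell, with 276 and 375 in fasted worms, against 582 and 640.2 in fed worms (-0.997 ± 0.25). The other 5, hsp-12.1, hsp-12.2, hsp-25, hsp-43 and sip-1, had differences of -0.19 to 0.31 and did not pass the test. Genes of the hsp-16 class are near-identical copies, so that their probe sets may share signal. Of 31 larger chaperones 9 rose and 2 fell. Among those that rose were hsp-3, a BiP protein, at 1717 and 1658 in fasted worms, against 708 and 902 in fed worms (1.07 ± 0.15), and the disulfide isomerases pdi-3 and pdi-2 at 0.70 ± 0.10 and 0.97 ± 0.20. The heat-inducible hsp-70 rose by about 1.64 ± 0.18. The 2 that fell were the mitochondrial chaperone genes hsp-60, with 379 and 324 in fasted worms, against 754 and 705 in fed worms (-1.10 ± 0.31), and hsp-75 (-0.64 ± 0.21).

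Genes of SCF-type ubiquitin ligases were counted by class. Like all lists here, these were chosen with earlier results of these data known, so that their direction is no independent evidence. Of 19 Skp1-related skr genes, the linkers of the ligase, 15 rose and 2 fell, with a median of 1.35. The gene skr-5 read 235 and 324 in fasted worms, against 69.9 and 66.3 in fed worms (1.78 ± 0.24), skr-13 read 3734 and 3512 in fasted worms, against 1328 and 1371 in fed worms (1.39 ± 0.24), and skr-14 had 1396 and 1234 in fasted worms, against 260.2 and 389 in fed worms. The fallen ones were skr-17 (592 and 536 in fasted worms, against 1051 and 1124 in fed worms) and skr-11. F-box proteins choose the substrate. In class fbxb 59 of 95 rose and 0 fell by limma (1 with p under 0.05 before adjustment), with a median of 0.74. In class fbxc 19 of 44 rose and 3 fell, with a median of 0.38. In class fbxa 37 of 171 rose and 15 fell (29 and 45 with median centring), with a median of 0.06. Thus 62.1%, 43.2% and 21.6% of the 3 classes rose beside 16.6% of all genes. The gene fbxb-15 read 593 and 448 in fasted worms, against 110.4 and 151 in fed worms (1.89 ± 0.21), and fbxb-40 read 369 and 348 in fasted worms, against 81.9 and 90.4 in fed worms (1.88 ± 0.23). In class fbxc, fbxc-52 had 554 and 398 in fasted worms, against 163 and 160.02 in fed worms (1.43 ± 0.21) and the fallen fbxc-47 had 297 and 251 in fasted worms, against 449 and 517 in fed worms (-0.95 ± 0.18). In class fbxa, fbxa-115 had 364 and 336 in fasted worms, against 135 and 116 in fed worms (1.31 ± 0.19). Members of these large classes resemble each other in sequence, so that a probe set may detect several. The MATH and BTB domain genes, adaptors of the related cullin 3 ligases, stood near the background with 19 of 103 risen and 16 fallen (19 and 32 with median centring). Of 23 cullins and partners 4 rose and 2 fell (2 and 7 with median centring, 7 and 3 with the replicate block), with the cullin cul-6 at 362 and 327 in fasted worms, against 134 and 151 in fed worms (1.11 ± 0.16) and the muscle F-box gene mfb-1 at 1.30 ± 0.22.

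Several stress kinase genes rose, 59.1% of the JNK and p38 list beside 16.6% of all genes. Of 22 genes of the JNK and p38 kinase pathways 13 rose and 0 fell by limma (1 with p under 0.05 before adjustment) (13 and 1 with the replicate block), with a median of 0.78 beside -0.03 for all genes. The kinase kinase genes sek-3 and sek-1 had 2130.4 and 1838 in fasted worms, against 616 and 654 in fed worms, and 699.99 and 628 in fasted worms, against 217 and 301 in fed worms (1.62 ± 0.21 and 1.34 ± 0.20). The p38 kinase pmk-3 had 376 and 351 in fasted worms, against 145 and 164 in fed worms (1.10 ± 0.17), and the JNK family kinase kgb-2 had 168 and 184 in fasted worms, against 51.5 and 54.8 in fed worms (1.44 ± 0.20). The study's mutants lack kgb-1, jun-1 or daf-16, and these 3 genes are named here after their values were seen. The kinase kgb-1 read 209 and 218 in fasted worms, against 118 and 107 in fed worms (0.63 ± 0.14), and jun-1, a subunit of the transcription factor AP-1, read 879 and 922 in fasted worms, against 669 and 589 in fed worms (0.54 ± 0.14). The FOXO gene daf-16 read 745 and 684 in fasted worms, against 608 and 608 in fed worms, with a difference of 0.26 ± 0.23 that did not pass the test (adjusted p = 0.45, limma). Of 26 basic leucine zipper factors 8 rose and 3 fell (6 and 6 with median centring, 10 and 5 with the replicate block). The unfolded protein factor atf-6 had 596 and 630.1 in fasted worms, against 204 and 246 in fed worms (1.40 ± 0.23), the surveillance factor zip-2 had 0.75 ± 0.15, and the mitochondrial stress factor atfs-1 had 205 and 199 in fasted worms, against 347 and 316 in fed worms (-0.92 ± 0.19).

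Of 259 nuclear hormone receptor genes 80 rose and 10 fell, a share of 30.9% and 3.86% beside 16.6% and 14.6% of all genes. The gene nhr-8, a receptor of the steroid and xenobiotic response, read 499 and 595 in fasted worms, against 147 and 142 in fed worms (1.81 ± 0.14). The receptor gene sex-1, which takes part in sex determination, read 1960.5 and 1723 in fasted worms, against 423 and 581 in fed worms (1.86 ± 0.20), and nhr-18 and nhr-45 rose by 1.65 ± 0.17 and 1.63 ± 0.18. The moulting receptor nhr-23 fell by 0.92, and nhr-86 by 0.79. Of 35 transcription factors and regulators tied to fasting and lifespan 14 rose and 6 fell, with the intestinal GATA factor elt-7 at 501 and 439.6 in fasted worms, against 183 and 178 in fed worms (1.29 ± 0.14) and the catalytic AMPK subunit aak-2 at 1034 and 1227 in fasted worms, against 454 and 606 in fed worms (1.11 ± 0.18). Of 22 genes of AMPK and TOR signalling 5 rose and 3 fell (5 and 9 with median centring, 7 and 5 with the replicate block). The regulatory AMPK subunit aakg-4 read 240.4 and 408 in fasted worms, against 63.7 and 77.98 in fed worms (1.93 ± 0.34), the kinase pek-1 rose by 0.93 ± 0.14, and rict-1, a subunit of TOR complex 2, fell by 0.74.

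Insulin-like ligands and genes of the pathway inside the cell held risen and fallen members, where 16.6% of all genes rose and 14.6% fell. Of 24 insulin-like peptide genes 13 rose and 2 fell. The gene ins-22 read 202 and 172 in fasted worms, against 47.6 and 39.98 in fed worms (about 1.83 ± 0.19), and ins-37 and ins-17 rose by about 1.63 ± 0.19 and 1.14 ± 0.17. The intestinal peptide ins-7, an agonist of the insulin receptor DAF-2, read 189 and 148 in fasted worms, against 492 and 599 in fed worms and fell (-1.89 ± 0.24). Of 18 genes of the pathway 7 rose and 2 fell (3 and 5 with median centring), with the kinase akt-2 at 456 and 555 in fasted worms, against 171 and 224 in fed worms (1.28 ± 0.29) and the phosphoinositide kinase age-1 at 277 and 225 in fasted worms, against 405 and 422 in fed worms (-0.89 ± 0.25). Among 24 genes of the dauer and steroid hormone pathway and their known outputs, 5 rose and 7 fell. The SMAD gene daf-14 read 1069 and 820.1 in fasted worms, against 329 and 370.3 in fed worms (1.42 ± 0.23), while dod-17 and pud-4 fell by about 1.90 and 1.30.

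Detoxifying enzymes differed by family, where 16.6% of all genes rose and 14.6% fell. In the cyp-35 family 0 of 10 genes rose by limma (0 with p under 0.05 before adjustment) and 6 fell. Beside cyp-35A3, cyp-35C1 read 94.8 and 98.04 in fasted worms, against 1357 and 1999.99 in fed worms (-4.32 ± 0.19), cyp-35A4 read 38.9 and 41.2 in fasted worms, against 459.97 and 904 in fed worms, and cyp-35A2 had 227 and 258 in fasted worms, against 982 and 1211 in fed worms (-2.31 ± 0.18). Both cyp-35A5 and cyp-35A1 were dim and fell by about 1.20 and about 0.92. The other 4, cyp-35B1, cyp-35B2, cyp-35B3 and cyp-35D1, had differences of about -0.44 to -0.01 and did not pass the test. In the cyp-34 family 3 of 9 rose and 0 fell by limma (0 with p under 0.05 before adjustment), with cyp-34A9 at 1225 and 1278 in fasted worms, against 268 and 303 in fed worms (2.09 ± 0.19), cyp-34A8 at 1.12 ± 0.31 and cyp-34A10 at about 0.46 ± 0.13. The other 6, cyp-34A1, cyp-34A2, cyp-34A3, cyp-34A5, cyp-34A6 and cyp-34A7, had differences of about -0.31 to about 0.14 and did not pass the test. In the cyp-33 family 3 of 18 rose and 0 fell by limma (2 with p under 0.05 before adjustment) (3 and 3 with median centring), led by cyp-33C8 with 629 and 575 in fasted worms, against 143 and 194 in fed worms (1.78 ± 0.22). Of the cyp-13 and cyp-14 genes 4 of 16 rose and 2 fell, with cyp-13A1 at about 1.31 ± 0.23 and cyp-14A5 at -0.98 ± 0.25.

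Conjugating enzymes held risen and fallen genes, where 16.6% of all genes rose and 14.6% fell. Of 64 UDP-glucuronosyl transferases 12 rose and 24 fell (18 and 15 as deposited). The gene ugt-22 read 144 and 150.5 in fasted worms, against 1508 and 1987 in fed worms, ugt-41 read 48.7 and 49.1 in fasted worms, against 269 and 264 in fed worms (about -2.61 ± 0.22), and ugt-50 read 279 and 278 in fasted worms, against 101 and 94.7 in fed worms (1.25 ± 0.15). Of 45 glutathione S-transferases 6 rose and 14 fell. The SKN-1 target gst-4 read 246 and 289.8 in fasted worms, against 1336 and 1382 in fed worms (-2.48 ± 0.28), and gst-10 read 149.96 and 183 in fasted worms, against 975 and 931 in fed worms (-2.70 ± 0.27). Fasted and fed arrays of both genes were several-fold apart. The gene gst-15 rose (about 1.76 ± 0.24). Of 5 flavin monooxygenases fmo-1 rose, with 213 and 229 in fasted worms, against 64.3 and 61.6 in fed worms (1.52 ± 0.16), and fmo-3 fell, with 89.99 and 93.8 in fasted worms, against 200.2 and 210.1 in fed worms (-1.44 ± 0.15) (3 and 1 as deposited, 3 and 1 with the replicate block). The other 3, fmo-2, fmo-4 and fmo-5, had differences of 0.15 to about 1.12 and did not pass the test. Of 30 short-chain dehydrogenases 6 rose and 7 fell (10 and 6 as deposited, 10 and 8 with the replicate block), with dhs-8 at about 1.15 ± 0.18 and dhs-7 at -1.45 ± 0.15. Among 21 genes of superoxide and peroxide defence 8 rose and 2 fell (8 and 8 with median centring, 9 and 4 with the replicate block). The metallothioneins went opposite ways, with mtl-1 at 4808 and 5551 in fasted worms, against 1861 and 1646 in fed worms (1.55 ± 0.16) and mtl-2 at 3240.04 and 2418 in fasted worms, against 7725 and 4847 in fed worms (-1.12 ± 0.24). The extracellular superoxide dismutase sod-4 read 421 and 527 in fasted worms, against 135 and 175 in fed worms (1.51 ± 0.19), the intestinal thioredoxin trx-3 rose by about 2.21 ± 0.21, and the cytosolic sod-1 fell by 0.45.

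Defence classes held risen and fallen genes, where 16.6% of all genes rose and 14.6% fell. Of 10 lysozymes of the lys class 2 rose and 7 fell. The gene lys-2 read 565 and 802 in fasted worms, against 4368 and 4279.8 in fed worms (-2.64 ± 0.20), lys-7 read 2588 and 3799.9 in fasted worms, against 8669 and 8696 in fed worms (-1.52 ± 0.16), and lys-1 had -1.42 ± 0.15. Further falls were lys-6, lys-8, lys-4 and lys-5 (-2.49 to about -0.73). The genes lys-3 and lys-10 rose, with 151 and 183 in fasted worms, against 35.7 and 37.998 in fed worms, and 264 and 205 in fasted worms, against 54.7 and 65.4 in fed worms (about 1.92 ± 0.16 and 1.69 ± 0.29), and lys-9 had a difference of about -0.26 that did not pass the test. Of 6 invertebrate-type lysozymes, ilys-4 was the third risen one, with 322 and 407 in fasted worms, against 136 and 178 in fed worms (1.07 ± 0.22), while ilys-1 and ilys-6 did not pass the test (about 0.09 and about -0.29) (3 and 2 with the replicate block). Of 220 C-type lectins 17 rose and 22 fell (24 and 16 as deposited, 27 and 36 with the replicate block), so that most were not called. The gene clec-50 read 1707 and 1833 in fasted worms, against 4055 and 4327 in fed worms (-1.24 ± 0.10), clec-41 read 217 and 271 in fasted worms, against 1592 and 1417 in fed worms (-2.78 ± 0.23), and clec-83 read 1659 and 2221 in fasted worms, against 614 and 707 in fed worms (1.51 ± 0.14). Of 18 saposin-like genes 3 rose and 3 fell (5 and 3 as deposited, 3 and 5 with median centring), with spp-31 at 1.63 ± 0.21. Of 4 thaumatin genes thn-1 rose, with 541 and 484 in fasted worms, against 85.4 and 111 in fed worms (2.26 ± 0.23), and 0 fell by limma (1 with p under 0.05 before adjustment) (1 and 2 with median centring). The other 3, thn-3, thn-4 and thn-6, had differences of about -0.31 to -0.07. Among 21 epidermal antimicrobial peptides 3 rose and 7 fell. The caenacins cnc-2 and cnc-4 read 110.4 and 88.1 in fasted worms, against 349 and 349 in fed worms, and 426 and 542 in fasted worms, against 1969.9 and 1629.6 in fed worms (-2.06 ± 0.16 and -1.91 ± 0.27), while cnc-1 rose by about 1.85 ± 0.22.

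**Figure D3:**
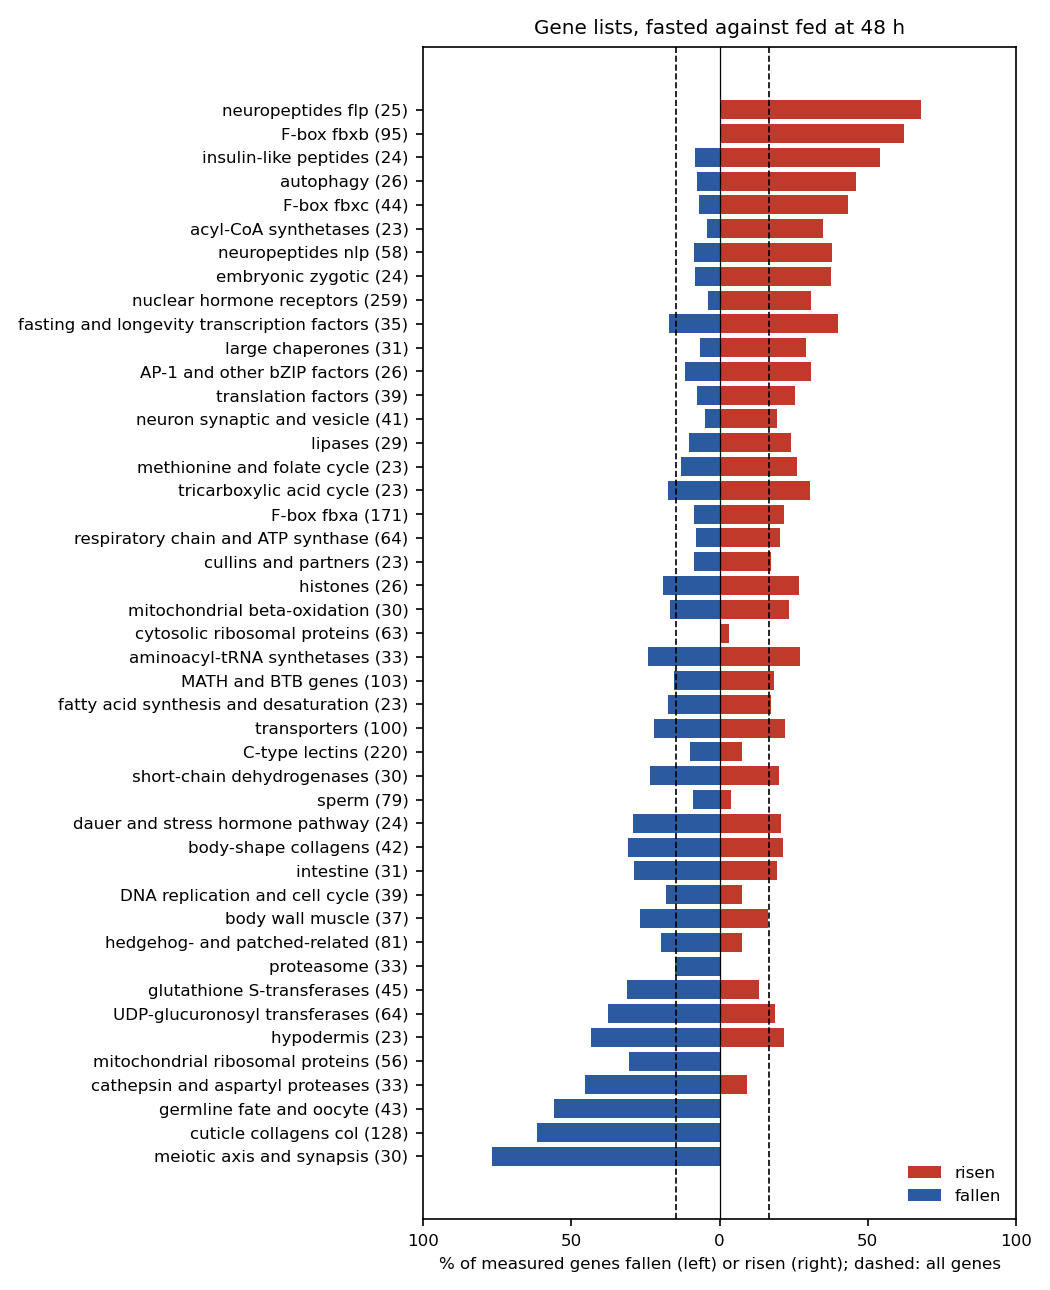
Percentage of measured genes that rose (red, right of 0) and fell (blue, left of 0) in the 45 gene lists with at least 23 measured genes, ordered by the balance, with the number measured. Dashed lines mark all 17118 genes, of which 16.6% rose and 14.6% fell. The col, meiotic and germline fate lists lie at the falling end, and flp and fbxb genes at the rising end.

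Transport and one-carbon genes moved singly. Of 100 transporters 22 rose and 22 fell (30 and 15 as deposited, 20 and 33 with median centring). The heme exporter mrp-5 read 2408 and 2483 in fasted worms, against 893 and 1029 in fed worms (1.32 ± 0.15), the P-glycoprotein pgp-4 read 372 and 349 in fasted worms, against 106 and 112 in fed worms (1.55 ± 0.19), and aqp-7, another aquaporin, rose by 1.55 ± 0.20. The heme-responsive genes hrg-11.3 and hrg-11.4 fell by 2.99 and 1.29. Of 18 genes of propionate breakdown and vitamin B12 metabolism 6 rose and 6 fell (7 and 6 as deposited, 5 and 8 with median centring). The B12-dependent canonical route has pccb-1, a propionyl-CoA carboxylase subunit, at 2105 and 1779 in fasted worms, against 947 and 933 in fed worms (1.03 ± 0.18). The B12-independent shunt has acdh-1, described above as fallen, and alh-8 at 3652 and 3704 in fasted worms, against 1626 and 1771 in fed worms (1.07 ± 0.18). Its regulator nhr-68 rose by 0.83 ± 0.12. Of 23 genes of the methionine and folate cycles 6 rose and 3 fell (6 and 10 with median centring, 6 and 6 with the replicate block). The cystathionine beta-synthase cbs-1 read 232 and 177 in fasted worms, against 87.9 and 99.5 in fed worms (0.81 ± 0.16), the phosphoethanolamine methyltransferase pmt-1 rose by 1.19 ± 0.25, and the cystathionine lyase cth-2 fell by 1.01.

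Many cuticle collagens fell. Of 128 col genes, whose products build the worm's outer coat, 0 rose by limma (0 with p under 0.05 before adjustment) and 79 fell, which is 61.7% beside 14.6% of all genes. Their median difference was -0.98. The gene col-101 read 165 and 250.1 in fasted worms, against 2471 and 1887 in fed worms, col-181 read 814 and 1300.3 in fasted worms, against 5198 and 4940.3 in fed worms (-2.30 ± 0.19), and col-183 fell by about 3.56. In each, both fasted arrays were below both fed arrays, which the choice of the lowest genes required for col-101 and col-183. Collagens of body shape were mixed, with 9 of 42 genes named for body shape risen and 13 fallen (11 and 11 as deposited). The collagens sqt-3, with 1640.1 and 2942 in fasted worms, against 6060.2 and 6195 in fed worms (-1.51 ± 0.24), and sqt-2, bli-2 and ram-2 fell, while dpy-23, dpy-14 and rol-3 rose, of which dpy-23 and rol-3 make no collagen. Of 20 genes of collagen processing and the apical matrix 8 rose and 0 fell by limma (1 with p under 0.05 before adjustment) (8 and 1 with the replicate block), such as the astacin protease nas-37 at 165 and 237 in fasted worms, against 56.9 and 68.3 in fed worms (1.38 ± 0.23) and the matrix gene noah-1 at 882 and 859 in fasted worms, against 244 and 384 in fed worms (1.49 ± 0.32). Of 81 hedgehog- and patched-related genes 6 rose and 16 fell, with wrt-10 at 481 and 442 in fasted worms, against 101 and 160.1 in fed worms (1.74 ± 0.25) and ptr-16 at about -1.37 ± 0.20.

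Many genes of meiosis and of germline fate fell, 76.7% and 55.8% of these lists beside 14.6% of all genes. Of 30 genes of the meiotic chromosome axis and synapsis 0 rose by limma (1 with p under 0.05 before adjustment) and 23 fell, with a median of -0.83. The double-strand break enzyme spo-11 read 178 and 160.3 in fasted worms, against 390.4 and 356 in fed worms (-1.36 ± 0.17), the synaptonemal complex gene syp-2 read 457 and 405 in fasted worms, against 1002 and 971 in fed worms (-1.21 ± 0.16), and him-5 had 160.1 and 118 in fasted worms, against 323 and 329 in fed worms (-1.48 ± 0.19). Of 43 genes of germline fate and oocytes 0 rose by limma (0 with p under 0.05 before adjustment) and 24 fell, with a median of -0.67. The P granule gene pgl-2 read 138 and 105 in fasted worms, against 280.5 and 246 in fed worms (-1.40 ± 0.23), the stem cell factor fbf-2 read 319.6 and 342 in fasted worms, against 624 and 712 in fed worms (-1.07 ± 0.18), and puf-11 had -1.07 ± 0.19. The summed intensity of this list was 73590.00 and 64240.00 in fasted worms, against 103203 and 97903 in fed worms, so its fasted arrays were lower. Sums are of deposited intensities. Over all genes they were 6913023 and 7051494 in fasted worms, against 6710277 and 6773200 in fed worms, beside which list sums are to be read. Of 20 genes of the eggshell and egg activation 0 rose by limma (0 with p under 0.05 before adjustment) and 12 fell, with cpg-9 at 88.3 and 74.4 in fasted worms, against 306 and 328 in fed worms (-2.19 ± 0.18) and egg-2, an oocyte surface protein, at 1636 and 1661 in fasted worms, against 3124 and 3198 in fed worms (-0.95 ± 0.16). Of 39 genes of DNA replication and the cell cycle 3 rose and 7 fell (5 and 10 with the replicate block), with the replication factor psf-2 at -1.32 ± 0.19 and the cell cycle kinase cdk-4 at 1.30 ± 0.26.

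Few sperm genes were called, and genes of the early embryo changed in both directions. Of 79 sperm genes 3 rose and 7 fell (14 and 5 as deposited, 14 and 10 with the replicate block), and 37 of them were near the floor. The transcription factor spe-44 read 127 and 101 in fasted worms, against 263 and 212 in fed worms (-1.34 ± 0.22). The summed sperm intensity was 13280.00 and 9625 in fasted worms, against 8070.00 and 9584 in fed worms. The groups did not overlap, but the lower fasted sum was close to the higher fed sum. Of 24 genes first transcribed in the embryo 9 rose and 2 fell, with sdz-28 at 1193 and 1342 in fasted worms, against 319 and 456 in fed worms (1.69 ± 0.30) and tbx-9 at 170.3 and 116 in fasted worms, against 239.7 and 303 in fed worms (-1.20 ± 0.21). Of 26 histone genes 7 rose and 5 fell (2 and 8 with median centring, 12 and 5 with the replicate block). The histone H3.3 gene his-71 read 335 and 369 in fasted worms, against 85.3 and 83.5 in fed worms (1.87 ± 0.17), while his-62 fell by 0.85.

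Neuropeptide genes rose often, 68.0% of the flp and 37.9% of the nlp genes beside 16.6% of all genes. Of 25 FMRFamide-like flp genes 17 rose and 0 fell by limma (0 with p under 0.05 before adjustment), with a median of 0.80. The gene flp-9 read 317 and 396 in fasted worms, against 103 and 114 in fed worms (1.52 ± 0.16), flp-5 read 269.6 and 274 in fasted worms, against 91.4 and 88.2 in fed worms (1.34 ± 0.19), and flp-16 read 312 and 351 in fasted worms, against 114 and 136 in fed worms (1.22 ± 0.17). Of 58 nlp genes 22 rose and 5 fell. Beside nlp-51, nlp-80 read 509.6 and 566 in fasted worms, against 95.2 and 139 in fed worms (2.11 ± 0.20) and nlp-3 rose by 1.42 ± 0.23, while nlp-25 fell by 1.42. Of 41 genes of synapses and vesicles 8 rose and 2 fell (8 and 8 with median centring). The vesicular glutamate transporter eat-4 read 87.2 and 79.7 in fasted worms, against 30.2 and 38.7 in fed worms (about 1.04 ± 0.18), the syntaxin-binding gene unc-18 read 521 and 524 in fasted worms, against 256 and 267 in fed worms (0.96 ± 0.17), and tbh-1 and tdc-1, which make octopamine and tyramine, fell by 0.88 and 0.83. Summed over the list the intensity was 11614 and 12112 in fasted worms, against 11033 and 11255 in fed worms. The sums over all genes given above were higher in fasted worms too.

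Markers of the other tissues held risen and fallen genes, where 16.6% of all genes rose and 14.6% fell. The pharyngeal list had 9.09% and 13.6% and the somatic gonad list 11.8% and 11.8%, while 43.5% of the epidermal list fell. Of 37 body wall muscle genes 6 rose and 10 fell (6 and 6 as deposited), with the myosin light chain mlc-3 at 1742 and 1792 in fasted worms, against 956 and 988 in fed worms (0.85 ± 0.16) and the troponin T gene mup-2 at 157 and 196 in fasted worms, against 382 and 417 in fed worms (-1.39 ± 0.22). Their summed intensity was 30441 and 30463 in fasted worms, against 28439 and 29335 in fed worms, where the sums over all genes were also higher in fasted worms. Of 31 intestinal genes 6 rose and 9 fell, with gem-4 at 571 and 695 in fasted worms, against 164 and 183 in fed worms (1.79 ± 0.23) and the intestinal actin act-5 at 735 and 1113 in fasted worms, against 1643 and 1655 in fed worms (-0.86 ± 0.19), and a summed intensity of 53802 and 59392 in fasted worms, against 68322 and 67326 in fed worms. Of 23 epidermal genes 5 rose and 10 fell, with fah-1 at 1.13 ± 0.21 and the adult collagen col-19 at 229 and 382 in fasted worms, against 1412 and 1428 in fed worms (-2.36 ± 0.32), and a summed intensity of 8285 and 9388 in fasted worms, against 12508 and 13267 in fed worms. Of 22 pharyngeal genes 2 rose and 3 fell (5 and 1 as deposited, 4 and 5 with the replicate block), with the laminin lam-3 at 0.79 ± 0.18 and tni-4 at -0.68 ± 0.19. Of 17 genes of the somatic gonad 2 rose and 2 fell (5 and 2 as deposited, 1 and 3 with median centring), with the sheath cell innexins inx-8 and inx-9 at -0.66 ± 0.14 and -0.80 ± 0.16. Of 8 coelomocyte genes cup-16 and ppk-3 rose and cup-15 fell (2.78, 1.37 and -0.90) (2 and 2 with median centring). The other 5, cup-14, cup-4, hpo-6, lgc-26 and unc-122, had differences of -0.70 to about 0.16. Of 10 genes of male neurons and seam cells 2 rose, the epidermal regulators ceh-16 and elt-1 (0.47 to about 0.68), and 0 fell by limma (1 with p under 0.05 before adjustment) (2 and 3 with median centring, 2 and 1 with the replicate block). The other 8, cil-7, cwp-1, cwp-4, cwp-5, lov-1, mab-3, pkd-2 and ram-5, had differences of about -0.43 to about 0.05 and did not pass the test. The part that tissue makeup has in the changes of other lists was not tested.

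The response at 48 h can be set beside that of the first day of fasting, measured on other arrays. After 24 h, 2907 of 17118 genes rose (17%) and 2803 fell (16.4%). Of the genes risen at 48 h 2297 had also risen at 24 h, which is 80.8% of the risen genes at 48 h and 79% of those at 24 h. Of the fallen genes 1972 were shared, 79% of those at 48 h and 70.4% of those at 24 h. A single gene was called in opposite directions, risen at 48 h and fallen at 24 h. The test of the difference between the responses called 0 genes with a higher response at 48 h and 6 with a lower one (0.0351%), and 9 probe sets of 22548 (0.0399%). Lower here means a more negative log2 difference at 48 h, not a weaker response. At an unadjusted p under 0.05 the difference covers 806 probe sets (3.57%). With the replicate block it called 30 probe sets, 3 higher and 27 lower. Without fasted 48 h replicate 2 it called 18, of which 17 were lower.

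In 5 of the 6 genes the fasted worms lay below the fed worms at 24 h and further below them at 48 h, and T01D3.6 was above at 24 h, where it was not called, and below at 48 h. Of the 9 probe sets, 3 detect ilys-5 and 2 detect C17H12.8, and the brightest of each is given. The call of T01D3.6 was lost with any 1 of the 8 arrays left out (adjusted p = 0.0593 to 0.356, limma), and that of C17H12.8 with 5 of them (up to 0.251). The collagen col-183 read 47.4 and 65.1 in worms fasted for 24 h, against 108 and 106 in worms fed for 24 h, and 38.01 and 48.7 in worms fasted for 48 h, against 541 and 417 in worms fed for 48 h. The responses of col-183 were about -3.56 at 48 h and -1.18 at 24 h, a difference of about -2.38 ± 0.28 (adjusted p = 0.00112, limma). The carboxypeptidase ctsa-1.2 read 456 and 372 in worms fasted for 24 h, against 2550.3 and 2436 in worms fed for 24 h, and 134 and 132 in worms fasted for 48 h, against 3174 and 3034 in worms fed for 48 h. The responses of ctsa-1.2 were -4.77 at 48 h and -2.57 at 24 h, a difference of -2.20 ± 0.24 (adjusted p = 0.000435, limma). The lysozyme ilys-5 read 3448 and 2851 in worms fasted for 24 h, against 9133 and 9388 in worms fed for 24 h, and 732 and 959 in worms fasted for 48 h, against 9258 and 10751 in worms fed for 48 h. The responses of ilys-5 were -3.56 at 48 h and -1.52 at 24 h, a difference of -2.03 ± 0.19 (adjusted p = 5.9e-05, limma). The gene C17H12.8 read 1076 and 1273 in worms fasted for 24 h, against 1730.4 and 1849 in worms fed for 24 h, and 344 and 388 in worms fasted for 48 h, against 1510.3 and 2049 in worms fed for 48 h. The responses of C17H12.8 were -2.33 at 48 h and -0.56 at 24 h, a difference of -1.77 ± 0.28 (adjusted p = 0.0288, limma). The gene K12H4.7 read 1038 and 1125 in worms fasted for 24 h, against 3299.9 and 3575 in worms fed for 24 h, and 374 and 418 in worms fasted for 48 h, against 3278 and 3322 in worms fed for 48 h. The responses of K12H4.7 were -3.07 at 48 h and -1.56 at 24 h, a difference of -1.51 ± 0.16 (adjusted p = 0.000285, limma). The gene T01D3.6 read 851 and 708 in worms fasted for 24 h, against 619 and 651 in worms fed for 24 h, and 424 and 456 in worms fasted for 48 h, against 792 and 769 in worms fed for 48 h. The responses of T01D3.6 were -0.83 at 48 h and 0.38 at 24 h, a difference of -1.21 ± 0.20 (adjusted p = 0.0483, limma).

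**Figure D4:**
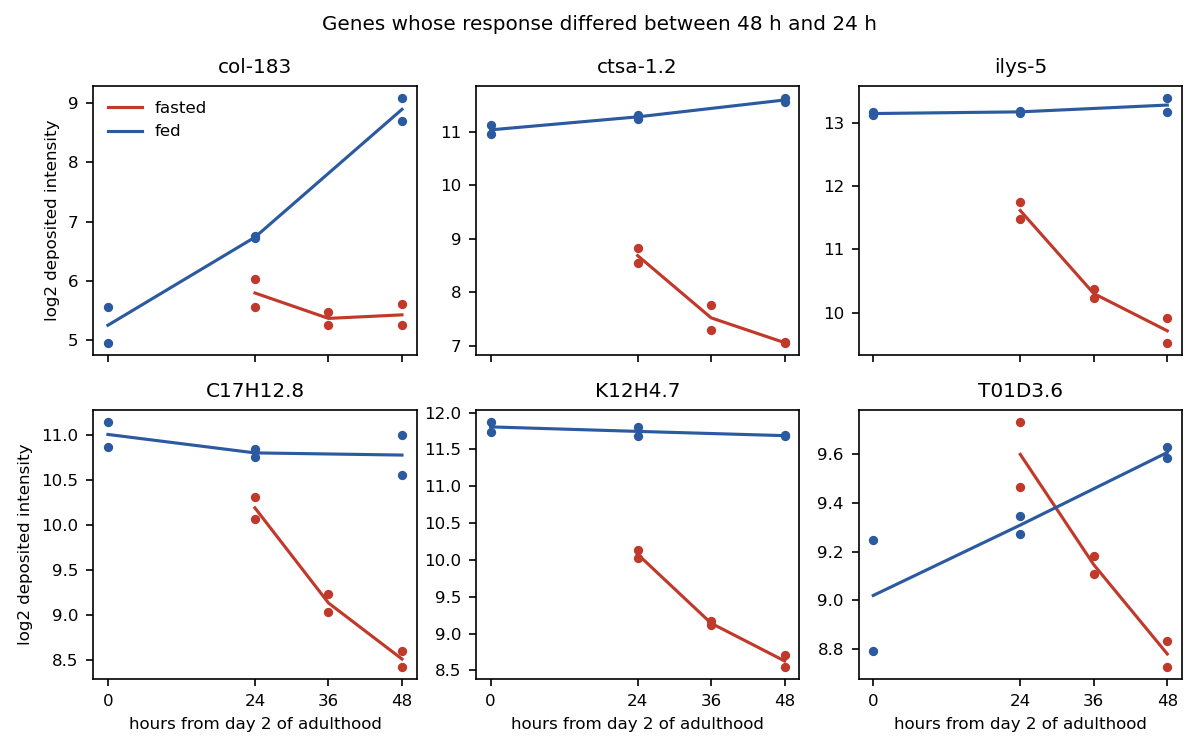
Log2 deposited intensity of the 6 genes called in the difference between the 48 h and 24 h responses, over hours from day 2 of adulthood, in fasted worms (red, 24, 36 and 48 h) and fed worms (blue, 0, 24 and 48 h), with each array as a point and lines through the means. In all 6 panels fasted worms lie below fed worms at 48 h, and in T01D3.6 they lie above them at 24 h.

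**Figure D5:**
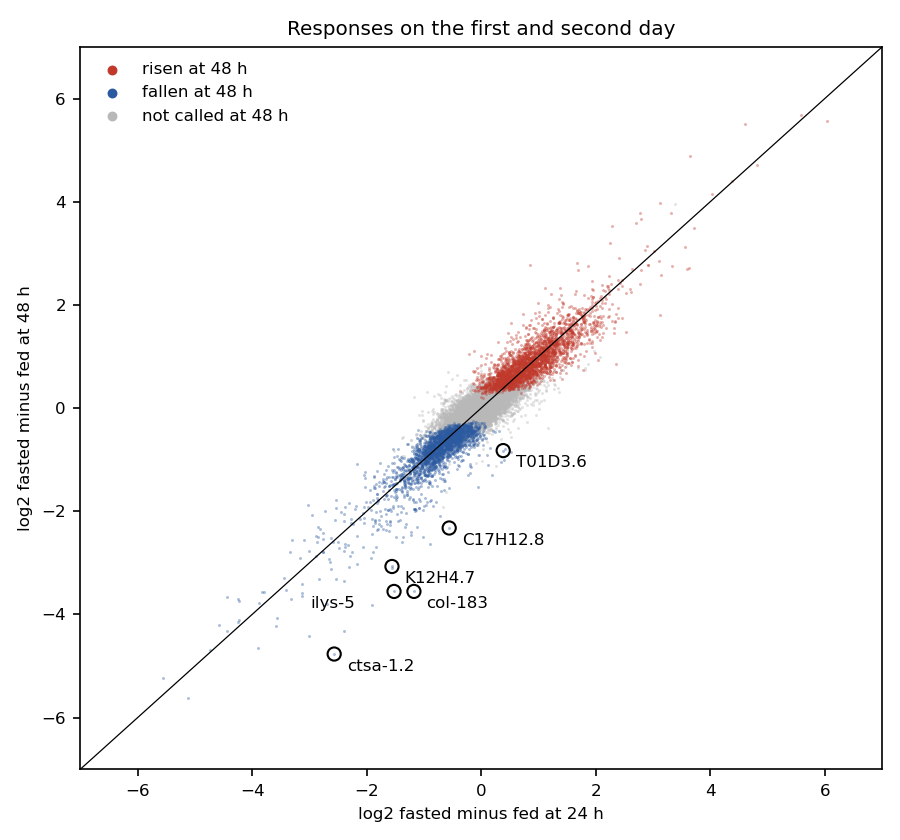
Log2 difference between fasted and fed worms at 48 h (vertical axis) against that at 24 h (horizontal axis), 1 point per gene, with genes risen at 48 h red, fallen ones blue and others grey. The 6 genes whose difference between the times was called are ringed and named, and all lie below the line of equal responses.

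Fasted and fed N2 worms of the mutant set gave 602 risen (3.52%) and 380 fallen genes (2.22%), and 1221 probe sets in all (5.42%, or 2704 with the replicate block). Of the genes risen at 48 h in the time course 513 rose there too and 6 fell, and of the fallen ones 284 fell and 6 rose. The 24 highest genes were called higher there in 21 cases and the 24 lowest lower in 16, and the sign was the same in 24 of 24 in each direction. In fbxb-86 that difference was only 0.03 ± 0.39. The 24 highest and 24 lowest genes are the extremes at 48 h, and the share of all genes with the same sign was not counted. The gene hsp-12.6 differed by 3.55 ± 0.39 there, beside about 5.69 at 48 h. The aquaporin aqp-1 differed by 3.31 ± 0.29, and acs-2 by 3.79 ± 0.37. The cytochromes cyp-35A3, cyp-35A4 and cyp-35C1 differed by -0.12 ± 0.53, -0.22 ± 0.33 and -0.95 ± 0.70, beside about -5.62, about -4.08 and -4.32 in the time course, and pud-3 and dhs-26 by -0.19 ± 0.53 and -0.05 ± 0.22. With p under 0.05 before adjustment, 1701 genes (9.94%) were higher and 1145 (6.69%) lower there. With the replicate block 1328 of all 17118 genes were called higher and 814 lower, beside which the block counts of lists below are to be read. Of the JNK and p38 genes 0 rose and 0 fell there by limma (3 and 1 with p under 0.05 before adjustment, 2 and 1 with the replicate block), with a median of 0.0054. Of the flp genes 0 rose and 0 fell (1 and 0 before adjustment, 1 and 0 with the replicate block, median 0.30). The meiotic genes had 0 and 0 (1 and 3 before adjustment, 0 and 1 with the replicate block, median -0.20), and the germline fate genes 0 and 0 (0 and 7 before adjustment, 0 and 7 with the replicate block, median -0.27). Of the skr genes 8 rose and 0 fell (13 and 0 with the replicate block), and of the col genes 0 rose and 1 fell (0 and 45 with the replicate block, median -0.79). The difference between the sets was not tested, since the fasting time and the runs differ or are not in the labels.

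A few genes differed mainly between the fasted replicates, and they are named here after their values were seen. The gene clx-1, a collagen-like gene, read 53.99 and 30518 in fasted worms, against 49.7 and 53.6 in fed worms, so that 1 fasted array was at the level of food and the other far above it. Its difference did not pass the test (adjusted p = 0.151, limma). The ribosomal RNA gene rrn-3.1 read 656 and 5476 in fasted worms, against 6279 and 8144 in fed worms, with 1 fasted array far below the other 3 (adjusted p = 0.0507, limma). The gene ule-3 read 816 and 4926 in fasted worms, against 5705 and 6632 in fed worms (adjusted p = 0.0629, limma). The 2 replicates limit what can be said of such genes.

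Of 2981 genes with several probe sets, 15 had probe sets called in opposite directions, none of them named here. For 17 of the named genes another probe set of the gene was not called: hosl-1, dgat-2, fasn-1, sdha-1, rps-16, pdi-2, hsp-60, atf-6, nhr-23, ugt-50, pccb-1, sqt-3, eat-4, unc-18, tdc-1, mlc-3 and lam-3. With 2 arrays per group the p-values rest on a spread shared by the 22 time course arrays. Whether replicates of a group came from separate cultures is not in the labels beyond the words on independent experiments.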

How the data were processed

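The deposited values are intensities on a linear scale, 1 per probe set and array. Per the submitters' processing notes they were made with PLIER, a model that combines the probes of a set, while its version and the normalization are not given in the sources used here. Biotin-labelled cRNA came from total RNA, per the labels' protocols. The lowest deposited intensity lies just above 16 on all arrays. Of 22625 probe sets 77 controls were left out. Of the other 22548, 20766 had 1 gene symbol in the platform annotation, 887 several and 895 none listed. A gene was represented by its brightest probe set.

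Log2 intensities of the 22 time course arrays, with no offset added, were quantile-scaled and fitted with limma 3.58.1 (R 4.3.3) with 1 coefficient per group, 11 residual degrees of freedom and an intensity trend in eBayes. P-values were adjusted by Benjamini-Hochberg over all probe sets. The mutant set, 24 arrays, was fitted apart. The fit was tested on simulated data. A first test, with changes over the whole range of an array, failed, and simulated falls that end at the floor were understated. Known differences were recovered, on average over 10 draws, once changes were kept inside that range. Only a small part of the probe sets was changed in these draws, in equal numbers up and down, and no shift between arrays was simulated. The draws therefore do not show how the fit acts with as many changes, or with medians as far apart, as in the measured arrays. The measured log2 difference of spp-4, which ends near the floor, was about -4.66 with quantile scaling and about -4.55 as deposited. Same-numbered deviations of fasted and fed worms correlated at 0.341 at 48 h, at 0.272 to 0.618 over the 55 pairs of time course groups, and at 0.476 to 0.703 for N2 in the mutant set, and the design text speaks of independent experiments. The labels do not say that a number marks an experiment, but on these grounds the numbers were taken to pair the samples. The calls, SE and p-values given as main results come from the fit without this pairing. It entered the model only as the replicate block, with 3505 risen and 3340 fallen genes beside 2843 and 2497. Named genes were drawn from the 24 highest and 24 lowest with a class symbol and no overlap between the groups, the 4 risen and 4 fallen genes with the lowest p of each list, the members of lists of up to 12, the genes of the test between times, and the 5 highest and 5 lowest sequence names. The 6 genes said to be chosen after their values were seen are outside this rule. The comparison and the gene lists were chosen with earlier results of these data known. Alternatives were other scalings, offsets of 16 and 50, a filter on dim probe sets, no trend, the 4 arrays alone, the replicate block and leaving out each array.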

Additional observations from a re-analysis of the deposited data

Results flagged for a closer look

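The test of the difference between the responses at 48 h and 24 h called 9 probe sets. In all of them the log2 difference was more negative at 48 h. In all the genes but T01D3.6 the fasted worms lay below the fed worms at 24 h and further below them at 48 h. The lysozyme ilys-5 was called in 3 probe sets, with log2 differences between the responses of -2.03, -2.39 and -2.11. The gene C17H12.8 was called in 2, with -1.77 and -1.70. The collagen col-183 had about -2.38, the carboxypeptidase ctsa-1.2 had -2.20 and K12H4.7 had -1.51. The gene T01D3.6 had -1.21 and is the weakest of them, with an adjusted p of 0.0483 in limma. Single outlying arrays were not tested in groups of 2 arrays.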

How the results depend on the processing

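At 48 h, leaving out 1 array gave 4254 to 5305 probe sets called, 2386 to 2942 higher and 1868 to 2363 lower, and the lowest of each came without fed replicate 1, while without fasted replicate 2 there were 2104 lower. Median centring gave 10382, of which 7587 were lower, and at 24 h it gave 7016 lower. The cause was not tested. The values as deposited gave 2155 lower at 48 h. At 24 h leaving out 1 array gave 4935 to 5680 probe sets, 2694 to 3074 higher and 2241 to 2695 lower. The test between times called 6 to 18 probe sets with 1 array left out, 0 to 1 higher and 6 to 17 lower, 6 with the values as deposited, 1 higher with an offset of 50, and 30 with the replicate block, 3 higher and 27 lower. N2 of the mutant set gave 596 to 1388 probe sets with 1 array left out, 333 to 819 higher and 259 to 569 lower, and 2704 with the replicate block, 1667 higher and 1037 lower. The signs of rps-16 (-0.12) and rpl-23 (-0.19) turned with median centring. Of 292 named genes called at 48 h, 282 kept their call with the values as deposited, 285 with median centring, 292 with either offset and with the replicate block, 285 in the 4 arrays alone, and 268 to 279 with 1 array left out. In the test between times T01D3.6 lost its call with each of the 8 arrays left out (adjusted p = 0.0593 to 0.356, limma), with the values as deposited (0.203) and with median centring (0.0507). C17H12.8 lost it with the values as deposited (0.0507) and in 5 of these 8 (up to 0.251). The calls of ilys-5, ctsa-1.2, col-183 and K12H4.7 held in all settings run. Depth is not defined for arrays, where the number of arrays and the floor limit the precision.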
